A study of Mus musculus with 6 samples.

Results

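A set of 8 genes of membrane bending and branched actin assembly was followed in RNA recovered with the capsid-like protein PNMA4 from mouse testis. They are Fnbp1l, its paralogs Fnbp1 and Trip10, the partners Wasl and Cdc42, and the further F-BAR genes Pacsin2, Pacsin3 and Srgap2. Each of the 8 symbols matched 1 of the 57010 gene IDs in the deposited count table, and all 8 were among the 13413 genes that passed a filter on low counts. The set was chosen by the symbols of F-BAR and actin-nucleation genes around Fnbp1l, and Fnbp1l itself was selected on its measured difference between wild-type and PNMA4-lacking libraries. The other 7 genes were listed for their roles, with results of these data already known.

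The series asks which RNA is recovered with PNMA4, a protein whose gene (Moap1 in mouse gene tables) derives from a retrotransposon capsid gene. Wild-type (C57BL/6J) immunoprecipitates made up 3 libraries, and 3 libraries came from controls lacking PNMA4. Control replicates 1 and 2 were Pnma4-/- and control replicate 3 was Pnma1-/- Pnma4-/-, a double knockout. Each library came from 1 lysate of 8 pooled testes taken at 3 months of age. All 6 lysates were spun onto sucrose cushions of 25% and 70%, and the material above the denser cushion was separated on iodixanol. Fractions 8 and 9 were incubated with the same PNMA4 antibody in both groups, so the controls measured what was recovered without the antigen. The strain of the knockouts is not given in the sources used here. Input RNA was not analysed here. Levels therefore describe what the beads held, and less RNA in a cell, fewer cells of a type and less recovery on the beads cannot be told apart.

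F-BAR domains are crescent-shaped dimers that bind membrane lipids and bend the membrane into tubules. Proteins of the Fnbp1l, Fnbp1 and Trip10 group pair this domain with a binding site for the small GTPase CDC42 and an SH3 domain that binds N-WASP, the product of Wasl, so that actin branched by the Arp2/3 complex grows where the membrane is curved. In the testis, such actin networks are known from the tubulobulbar complexes of Sertoli cells, which take up cell junctions next to spermatids.

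Total counts ran from 3138657 to 6367930 per library. Moap1 had 7, 26 and 27 counts in wild type and 0 in every control, and Pnma1 had 0 counts in the double knockout alone. That library also stood apart in composition, with 57.5% of its counts in the ribosomal RNA-like gene Rn18s-rs5 against 27.3% to 36.1% in the other 5. Wild-type replicate 2 stood apart as well, with 0.751% of its counts in the gene Lars2 against 4.34% to 10.8% in the other 5. It also had the lowest Rn18s-rs5 share, 27.3%. Levels are in CPM, the count relative to the scaled library size. In the double knockout library 8 Leydig cell markers summed to 380 CPM, against 142 to 183 CPM elsewhere, and 10 Sertoli cell markers to 453 CPM, against 192 to 294 CPM. Its 8 peritubular and stromal markers summed to 76.6 CPM, against 42.1 to 53.4 CPM elsewhere, and its 8 spermatogonia markers to 80.9 CPM, against 53.0 to 59.6 CPM. All 32 markers of spermatogonia, spermatocytes and spermatids had counts. The 8 spermatocyte markers summed to 1052 to 1067 CPM in wild type and 919 to 1021 CPM in the controls, though 4 of the 8 had a lower mean in wild type. Round spermatid markers summed to 261 to 301 CPM in wild type and 283 to 343 CPM in the controls. For elongating spermatid markers the sums were 1996 to 2849 CPM in wild type and 2355 to 2598 CPM in the controls. The 8 epididymis markers, of which Lcn5 was at 0 in all libraries, summed to 9.47 to 13.7 CPM in wild type and 16.9 to 31.4 CPM in the controls. Only 2 of these 8 passed the filter on low counts, and 5 of the 8 had a lower mean in wild type. The part of these markers in the results was not tested. The members' values are given with and without the double knockout library.

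Fnbp1l (ENSMUSG00000039735, chromosome 3, 122538719 to 122619714 in GRCm38.p6), also known as TOCA-1, had a higher level in each wild-type library than in any control. Fnbp1l had 195, 379 and 421 counts in wild-type replicates 1 to 3, against 49, 252 and 73 counts in control replicates 1 to 3. Scaled, its level was 51.3, 48.5 and 64.7 CPM in wild type and 15.5, 36.0 and 24.4 CPM in the controls. The groups do not overlap, as even the lowest wild-type library exceeded the highest control, and the controls were the more spread out group. Wild type averaged 54.8 ± 8.66 CPM and the controls averaged 25.3 ± 10.3 CPM (SD, n = 3 each), and the fitted difference was 2.12-fold (log2 fold change 1.08, standard error 0.25, 95% interval 0.57 to 1.60). These are the values that chose the gene, and they are given as a description. By p, Fnbp1l ranked 11 of all tested genes and 6 among those higher in wild type, with an edgeR adjusted p of 0.269, above the threshold of 0.05. The next higher gene outside these 6, Gm6124, had a log2 fold change of 1.34 and an edgeR adjusted p of 0.602.

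**Figure D1:**
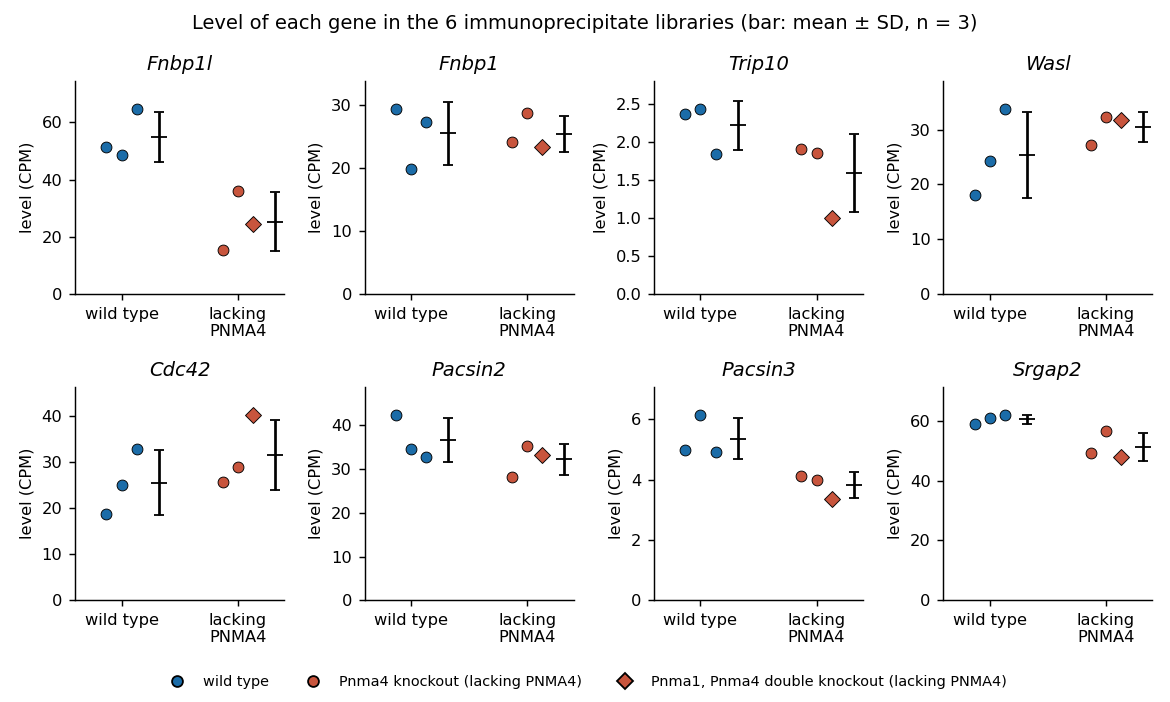
Level in CPM (vertical axes, from 0) of each of the 8 genes in the 3 wild-type libraries (blue, left) and the 3 libraries lacking PNMA4 (red, right, with the double knockout as a diamond). Bars show mean ± SD (n = 3), and Fnbp1l, Pacsin3 and Srgap2 are the genes whose groups do not overlap.

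Counting error was small beside this spread. The exact 95% Poisson interval of Fnbp1l was 43.7 to 53.6 CPM in its lowest wild-type library and 31.7 to 40.7 CPM in its highest control, and the 2 intervals do not meet. As these levels chose Fnbp1l, the gap between the groups is a description only. Between the lowest control (11.5 to 20.6 CPM) and the highest (31.7 to 40.7 CPM) there was a gap as well, so the controls differed among themselves by more than counting error. Molecular identifiers are not mentioned in the sources used here, and these intervals cover counting error only. Among the controls, the lowest Fnbp1l level stood in the library of lowest total count (3138657) and the highest level in that of highest total count (6367930). In wild type, the library of lowest total count (3743015) held neither extreme. These totals are before scaling, and the TMM factor was 0.628 for the double knockout against 1.01 for control replicate 1. After scaling, the double knockout was the smallest control library, and it did not hold the lowest Fnbp1l level. The part of depth in the difference was not tested.

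Whether Fnbp1l passed turned on the control libraries and on the filter. The fits below use the values that chose the gene, so they too are given as a description. Without control replicate 2, the Pnma4-/- library with the highest level, the log2 fold change of Fnbp1l was 1.46 (edgeR adjusted p = 0.0325), and without control replicate 1 it was 0.84 (edgeR adjusted p = 1.00). Without the double knockout library it was 1.05 (edgeR adjusted p = 0.489). Fnbp1l also passed when genes of low count were kept in the fit (log2 fold change 1.09, edgeR adjusted p = 0.0062). Across the 14 alternatives the log2 fold change ran from 0.84 to 1.46 and the adjusted p from 0.0062 to 1.00. As the groups do not overlap, the sign could not turn with 1 library left out.

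**Figure D2:**
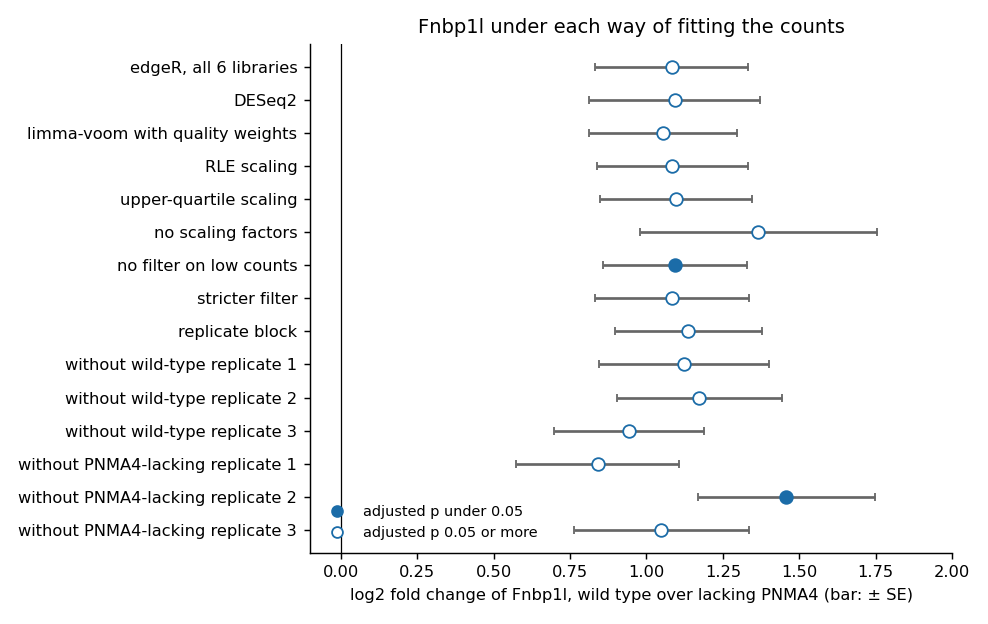
Log2 fold change of Fnbp1l, wild type over lacking PNMA4 (horizontal axis), with its standard error as a bar, for the fit of all 6 libraries and 14 alternatives (rows). Filled points have an adjusted p under 0.05, which were the fit without a filter on low counts and the fit without control replicate 2. Fnbp1l was chosen for its difference in these data, so all rows are a description.

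For both paralogs of Fnbp1l the groups overlap. Fnbp1 (ENSMUSG00000075415, chromosome 2, 31026206 to 31145454), which encodes the membrane-tubulating protein FBP17 of endocytosis, was at 29.4, 20.0 and 27.3 CPM in wild type, against 24.1, 28.7 and 23.4 CPM in the controls. The groups overlap fully, with means of 25.6 ± 4.98 CPM in wild type and 25.4 ± 2.88 CPM in the controls (SD, n = 3 each), and the log2 fold change was −0.0098 (95% interval −0.48 to 0.46). A difference of 2-fold in either direction is outside that interval. Trip10 (ENSMUSG00000019487, chromosome 17, 57233220 to 57263697), which encodes the CDC42-interacting protein CIP4, was counted 9, 19 and 12 times in wild type, against 6, 13 and 3 times in the controls. At these counts its groups overlap (2.21 ± 0.322 CPM in wild type and 1.59 ± 0.507 CPM in the controls; SD, n = 3 each). The 95% interval of the log2 fold change of Trip10, −0.53 to 1.36 around 0.42, does not exclude a 2-fold rise. Its span overlaps that of the protein-coding gene Gpr108, and since no strand setting is given in the sources used here, reads of a shared part may not be separable.

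Within a library, the count of Fnbp1l can be set against that of another member without any scaling between libraries. As a description, the ratio of Fnbp1l to Fnbp1 counts was 1.74, 2.43 and 2.37 in wild type and 0.645, 1.25 and 1.04 in the controls. Gene length is the same in both groups, so these ratios compare groups and not the levels of the 2 genes. Since Fnbp1l, chosen for its wild-type excess, is on top of every ratio, a higher ratio in wild type follows from that choice and is given with no count. The ratios to the lowest counted partners, Trip10 and Pacsin3, overlap between the groups. Against Srgap2, the most even in level of the 8 genes in wild type, the ratio was 0.904 ± 0.127 in wild type and 0.488 ± 0.162 in the controls (SD, n = 3 each).

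**Figure D3:**
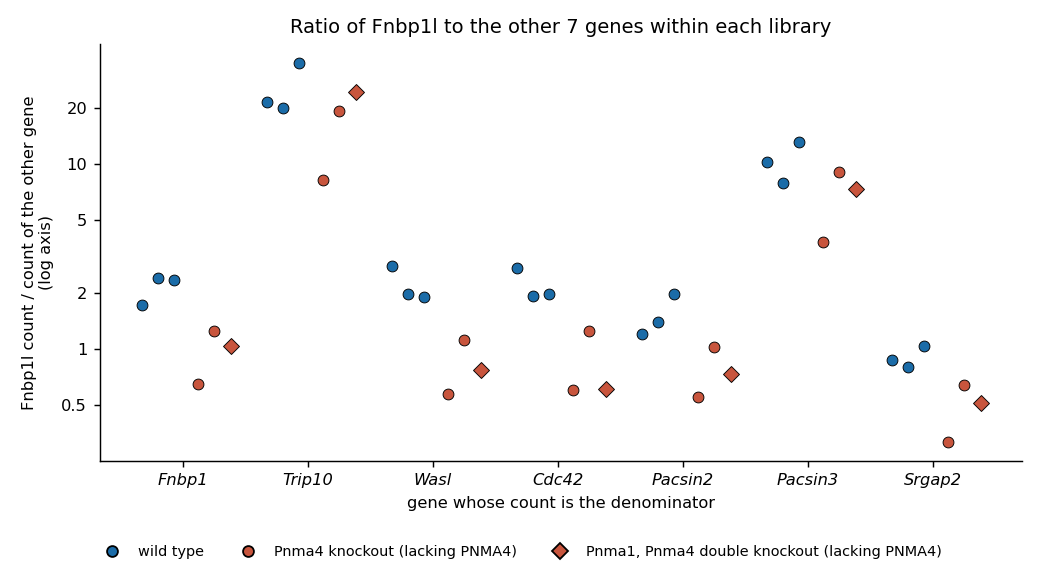
Count of Fnbp1l divided by the count of each of the other 7 genes within the same library (log axis), for wild-type libraries (blue, left of each pair) and libraries lacking PNMA4 (red, right, with the double knockout as a diamond). The groups overlap for Trip10 and Pacsin3, and the height of all ratios in wild type follows from the choice of Fnbp1l.

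The GTPase and the nucleation-promoting factor that the Fnbp1l group binds had lower mean levels in wild type, within the spread of the libraries. Cdc42 (ENSMUSG00000006699, chromosome 4, 137319696 to 137357759), the GTPase of cell polarity and filopodia, was at 18.7, 25.1 and 32.7 CPM in wild type, against 25.7, 28.9 and 40.1 CPM in the controls. The highest value was that of the double knockout library, and the groups overlap (log2 fold change −0.29, 95% interval −0.79 to 0.21). Wasl (ENSMUSG00000029684, chromosome 6, 24613810 to 24664995), which encodes the N-WASP activator of the Arp2/3 complex, was at 18.1, 24.3 and 33.8 CPM in wild type, against 27.3, 32.3 and 31.8 CPM in the controls. Here wild-type replicate 3 lay above every control and wild-type replicates 1 and 2 lay below every control (log2 fold change −0.25, 95% interval −0.74 to 0.24). Both intervals lie within 1 of 0. Single libraries moved both values, to −0.50 for each without wild-type replicate 3, and to −0.13 for Cdc42 and −0.080 for Wasl without wild-type replicate 1. The 2 genes had their lowest, middle and highest wild-type levels in the same libraries, and neither order is that of Fnbp1l. Without scaling factors the signs of both turned (0.063 for Cdc42 and 0.055 for Wasl), while the median log2 fold change of all tested genes also moved, to 0.31 without scaling factors from 0.012 with them.

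The pacsins and Srgap2 had positive log2 fold changes of small size. Pacsin2 (ENSMUSG00000016664, chromosome 15, 83375607 to 83464610), a broadly expressed pacsin that works with dynamin and at caveolae, was at 42.3, 34.7 and 32.7 CPM in wild type, against 28.2, 35.1 and 33.1 CPM in the controls. Its groups overlap (log2 fold change 0.17, 95% interval −0.27 to 0.61). Pacsin3 (ENSMUSG00000027257, chromosome 2, 91255875 to 91264680), the form best known from muscle, was counted 19, 48 and 32 times in wild type, against 13, 28 and 10 times in the controls, or 4.99, 6.14 and 4.92 CPM in wild type against 4.13, 4.00 and 3.34 CPM in the controls. The groups do not overlap, but the 95% interval of the log2 fold change, −0.22 to 1.18 around 0.48, includes 0. Counting error of single libraries was 14.4% to 31.6% of the level for Pacsin3, more than its spread of 12.8% in wild type and its smaller spread in the controls (CV, n = 3 each).

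Srgap2 (ENSMUSG00000026425, chromosome 1, 131285251 to 131527531) encodes an inverse F-BAR protein with a GTPase-activating domain for Rac, best known from neurons. It was at 58.9, 60.8 and 61.9 CPM in wild type, against 49.2, 56.4 and 47.8 CPM in the controls. The wild-type libraries were close to each other and lay just above the controls, with means of 60.5 ± 1.53 CPM in wild type and 51.1 ± 4.63 CPM in the controls (SD, n = 3 each). The log2 fold change was 0.24 (95% interval −0.17 to 0.65), so that a 2-fold difference is outside the interval. The span of Srgap2 also covers Fam72a, which had 43 counts in all 6 libraries together.

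Over the 8 genes, 5 had a positive and 3 a negative log2 fold change, with a median of 0.21, or 0.17 for the 7 genes without Fnbp1l, against 0.012 for all tested genes. None of the 8 passed the edgeR test at an adjusted p under 0.05, as 0.0596% of all tested genes did, and none passed in DESeq2, where 0.0522% did. At an unadjusted p under 0.05 there was 1 of 8, Fnbp1l, against 2.92% of all tested genes. Without wild-type replicate 3 there were 3 of 8, while 1321 of 13310 tested genes had such a p. The wild-type group lay above the controls with no overlap in 3 of 8 genes (Fnbp1l, Pacsin3 and Srgap2), and no member lay wholly below, against 3.28% of all tested genes with wild type above. Without the double knockout library none of the 8 passed either, and no sign changed. The log2 fold changes of Cdc42 and Trip10 were then −0.093 and 0.24. Like those of Fnbp1l, Wasl, Pacsin3 and Srgap2, they were closer to 0 than with that library, while those of Fnbp1 and Pacsin2 lay farther from 0. Beside Cdc42, Trip10 and Fnbp1l, the values of the other 5 genes lay from −0.23 (Wasl) to 0.41 (Pacsin3). Since results of this comparison were known when the genes were chosen, nothing is read from these shares. The 95% interval lay within 1 of 0 on the log2 scale for 5 of the 8 genes (Fnbp1, Wasl, Cdc42, Pacsin2 and Srgap2), against 71.1% of all tested genes.

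A second comparison set the double knockout library against the Pnma4-/- libraries (n = 1 and n = 2). These are the controls whose low levels chose Fnbp1l, so it is also a description. The spread in this fit comes from the wild-type and Pnma4-/- libraries, and the lone library, which stood apart in composition, is assumed to vary like them, so no change is bounded by this fit. None of the 8 genes passed, as 0.0746% of all tested genes did, and none had an unadjusted p under 0.05, against 6.19% of all tested genes. Fnbp1l was at 24.4 CPM in the double knockout, between its 15.5 and 36.0 CPM in the Pnma4-/- libraries (log2 fold change −0.12 ± 0.41 SE, edgeR adjusted p = 1.00). With 1 Pnma4-/- library left out its sign depended on which one, at −0.56 without control replicate 1 and 0.62 without control replicate 2. Cdc42 was at 40.1 CPM in the double knockout and at 25.7 and 28.9 CPM in the Pnma4-/- libraries (log2 fold change 0.55 ± 0.36 SE, edgeR adjusted p = 0.954). Srgap2 was at 47.8 CPM in the double knockout and at 49.2 and 56.4 CPM in the Pnma4-/- libraries (log2 fold change −0.15). The log2 fold changes of Fnbp1, Wasl, Pacsin2 and Pacsin3 were −0.18, 0.085, 0.053 and −0.27. Trip10, with 3 counts in the double knockout, had −0.89. The higher Leydig, Sertoli, peritubular and spermatogonia marker sums of the double knockout library stand beside these values, and their part was not tested.

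The rest of the F-BAR family was read beside the 6 members that belong to it. The list held 23 F-BAR genes, and 17 passed the filter on low counts, with 13 positive and 4 negative log2 fold changes and a median of 0.13, which was 0.25 without control replicate 2. Of the 11 tested F-BAR genes outside the 8, none passed the edgeR test in either direction, against 0.0596% of all tested genes, and their median was 0.078. Arhgap29 averaged 443 ± 42.3 CPM in wild type against 429 ± 20.7 CPM in the controls, and Srgap3 averaged 69.7 ± 3.50 CPM in wild type against 64.1 ± 11.2 CPM in the controls (SD, n = 3 each). Gas7, an F-BAR protein first found in growth-arrested cells, was at 47.0 ± 7.22 CPM in wild type, against 41.1 ± 4.91 CPM in the controls. The log2 fold changes of these 3 genes were 0.047, 0.11 and 0.19, each with a 95% interval within 1 of 0. The 6 genes that did not pass the filter were Arhgap4, Fcho1, Fes, Pstpip1, Nostrin and Arhgap45, with 2 to 33 counts in all 6 libraries together.

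**Figure D4:**
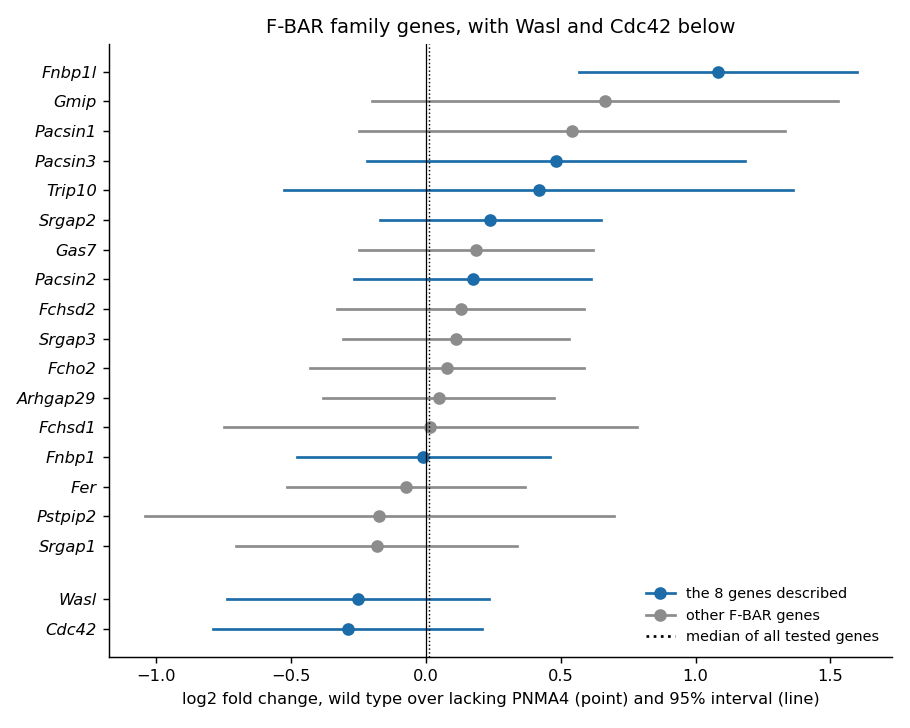
Log2 fold change, wild type over lacking PNMA4 (horizontal axis), with its 95% interval for the 17 tested F-BAR genes, and for Wasl and Cdc42 at the bottom. Blue marks the 8 genes described, and the dotted line the median of all tested genes, 0.012. Fnbp1l, which was chosen for its difference in these data, has the only interval that lies wholly on 1 side of 0 (edgeR adjusted p = 0.269).

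The machinery around these genes was read from 10 lists of membrane-bending, Cdc42 and actin genes, which were drawn up with earlier results of these data known. Outside the 8 genes they held 153 tested genes, and none passed the edgeR test in either direction (0.0596% of all tested genes did), nor did any pass in DESeq2 (0.0522% did). At such shares a count of 0 says nothing particular of these lists. Between the knockouts none passed the edgeR test either (0.0746% did), and 6 of the 160 listed genes tested had an unadjusted p under 0.05, against 6.19% of all tested genes. In wild type over lacking PNMA4, at an unadjusted p under 0.05 there were 5 genes, against 2.92% of all tested genes, and 11 had groups that do not overlap, against 6.69% of all tested genes. Their median log2 fold change was 0.066, with 96 positive and 57 negative. The 95% interval lay within 1 of 0 for 131 of the 153 genes, against 71.1% of all tested genes.

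Among proteins that bind or build branched actin, the list medians lay on both sides of 0. The Arp2/3 complex, which nucleates the branches, had 2 positive and 7 negative log2 fold changes among 9 tested genes, with a median of −0.16. Its genes of highest mean level were Arpc2 (33.5 ± 2.08 CPM in wild type and 39.3 ± 6.79 CPM in the controls), Actr2 (26.5 ± 5.69 CPM in wild type and 29.3 ± 2.85 CPM in the controls) and Arpc1a (26.3 ± 1.35 CPM in wild type and 27.6 ± 4.84 CPM in the controls; SD, n = 3 each). The WAVE complex, which activates Arp2/3 downstream of Rac, had a median of −0.050 over 7 genes, and its Abi2 was at 61.5 ± 15.0 CPM in wild type, against 63.8 ± 8.47 CPM in the controls. The sign of the WAVE median turned with 1 library left out (0.071 without wild-type replicate 1, 0.016 without control replicate 1), and it was −0.17 without wild-type replicate 3. The WASP family with its WIP partners had a median of 0.10 over 9 genes, which was 0.027 without wild-type replicate 2 and 0.18 without wild-type replicate 3. In that list Jmy, which both nucleates and branches actin, was at 78.7 ± 17.1 CPM in wild type, against 69.7 ± 14.0 CPM in the controls, and Wasf2 at 69.4 ± 14.2 CPM in wild type and 65.1 ± 5.33 CPM in the controls. Without scaling factors the medians of the Arp2/3 and WAVE lists were positive (0.14 and 0.27), below the 0.31 of all tested genes.

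Regulators and effectors of Cdc42 had medians between 0.041 and 0.17. With 1 library left out the inhibitor median ran from −0.046 (without wild-type replicate 2) to 0.087 (without control replicate 2), and that of the effectors from −0.0010 (without wild-type replicate 1) to 0.20 (without wild-type replicate 3). Exchange factors, which load Cdc42 and related GTPases with GTP, had a median of 0.17 over 19 genes. Of these Fgd6 was at 136, 145 and 142 CPM in wild type, against 114, 161 and 53.8 CPM in the controls, where the lowest value was that of the double knockout. In the comparison between knockouts, Fgd6 had a log2 fold change of −1.36 ± 0.36 SE (edgeR adjusted p = 0.202). The genes listed here as Cdc42 inhibitors (6 tested) had a median of 0.041. In that list Arhgap35 was at 228 ± 34.9 CPM in wild type and 226 ± 20.7 CPM in the controls. Arhgap32 was at 78.3 ± 9.42 CPM in wild type and 71.1 ± 8.94 CPM in the controls. Effectors (19 tested, median 0.061) included the scaffold Iqgap1 at 146 ± 3.66 CPM in wild type and 134 ± 14.7 CPM in the controls, and the kinase Cdc42bpa at 79.7 ± 5.11 CPM in wild type and 77.8 ± 12.5 CPM in the controls.

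Genes of other membrane-bending and endocytic proteins had list medians between 0.020 and 0.15. That of the BAR, N-BAR and I-BAR genes was −0.041 without wild-type replicate 1 and −0.046 without control replicate 1. The 38 tested BAR, N-BAR and I-BAR genes had a median of 0.020, and their Asap1 was at 209 ± 16.6 CPM in wild type, against 193 ± 10.3 CPM in the controls, with Sh3glb1, which encodes endophilin B1, at 198 ± 16.2 CPM in wild type and 203 ± 19.0 CPM in the controls. Dynamin and clathrin genes had a median of 0.077 over 23 genes. Cltc, the clathrin heavy chain gene, was at 258 ± 73.0 CPM in wild type, against 274 ± 20.8 CPM in the controls, and Ap2b1 of the clathrin adaptor at 433 ± 48.6 CPM in wild type and 480 ± 20.8 CPM in the controls. In the same range, formins and other nucleators of unbranched actin had a median of 0.15 over 15 genes, and their Daam2 was at 115 ± 17.5 CPM in wild type, against 95.7 ± 13.2 CPM in the controls.

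The 5 listed genes with an unadjusted p under 0.05 are named after their values were seen. Arpc5, an Arp2/3 subunit gene, averaged 8.63 ± 1.07 CPM in wild type and 14.6 ± 3.92 CPM in the controls (SD, n = 3 each), with 19.1 CPM in the double knockout as the highest value (log2 fold change −0.74), without overlap of the groups. Brk1 of the WAVE complex averaged 6.79 ± 0.288 CPM in wild type and 10.5 ± 2.58 CPM in the controls, likewise without overlap of the groups (log2 fold change −0.60). The groups overlap for the Cdc42 effector kinase gene Pak6 (0.97) and the formin gene Fmnl1 (0.77), but not for the nucleator gene Cobl (0.79). These 3 genes had higher means in wild type, and all were below 13 CPM in every library. Each had an edgeR adjusted p of 1.00.

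**Figure D5:**
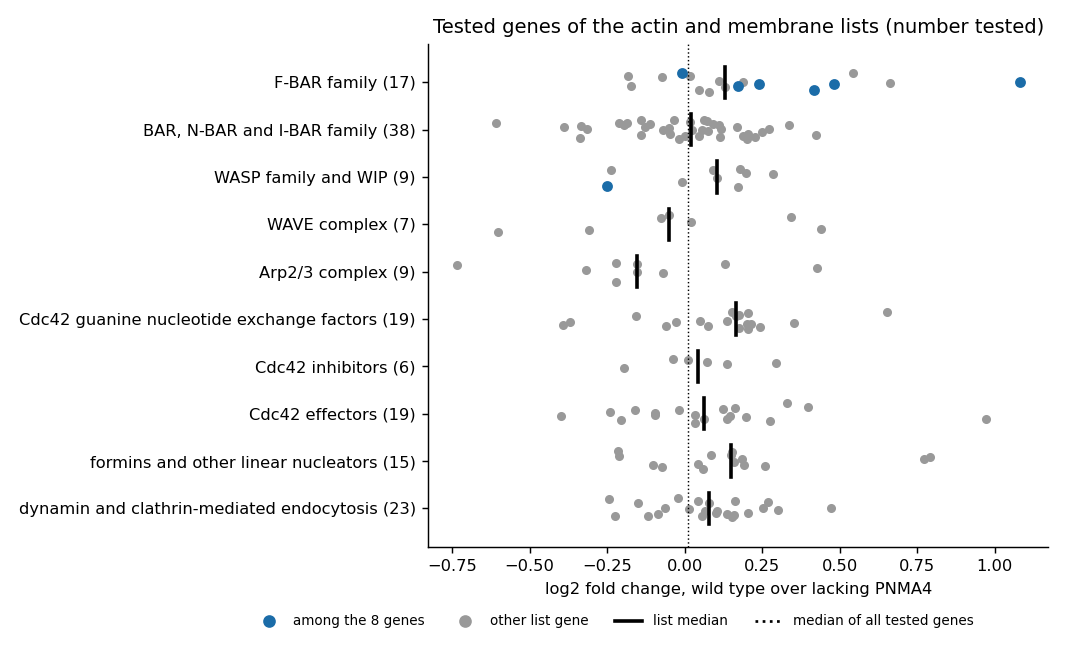
Log2 fold change, wild type over lacking PNMA4 (horizontal axis), of each tested gene (points) in 10 lists (rows, with the number tested), where blue points are among the 8 genes and black bars are list medians. List medians lie between −0.16 and 0.17, and Fnbp1l is the rightmost point of the F-BAR row at 1.08.

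Across the 6 libraries, the genes whose log2 level followed Fnbp1l most closely were Jade2, Plcb2, Tmem267, Sash1 and Gm9271, out of 7105 genes with a mean of at least 10 CPM. Their Pearson correlations with Fnbp1l were 0.99, 0.98, 0.98, 0.97 and 0.95 (n = 6 libraries), as a description over libraries that share their groups and depth. Plcb2, a phospholipase C gene, was at 34.4, 37.3 and 36.1 CPM in wild type, against 12.1, 25.7 and 17.1 CPM in the controls. Like Fnbp1l it was lowest in control replicate 1 and highest among the controls in replicate 2. Gm9271 was at 18.5 ± 1.34 CPM in wild type, against 8.25 ± 2.24 CPM in the controls, while the other 3 genes had log2 fold changes of 0.27 to 0.35. None of the 5 passed the edgeR test (adjusted p from 0.269 to 1.00). Among the members, Srgap2 was the most like Fnbp1l (r = 0.93), and Pacsin3 and Pacsin2 had r = 0.66 and 0.65. The paralogs Trip10 and Fnbp1 had r = 0.45 and 0.25, and Wasl and Cdc42 had r = −0.18 and −0.22 (n = 6 libraries each).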

How the data were processed

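The authors deposited 1 table of raw counts per Ensembl gene ID with gene symbols, and these raw counts were used. The tools named per the submitters' processing notes are featureCounts (Subread), STAR 2.5.2b, DESeq2 and bcl2fastq 2.20, with the build GRCm38 and without roles. The sources used here do not give the annotation release, the strand setting or the treatment of reads with several matches. All 6 count columns were matched to libraries by name. Where a symbol stood on several IDs, the ID with the highest total count was used. Coordinates are those of the RefSeq gene table of GRCm38.p6, matched by symbol. No genome or protein sequence was used here.

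In R 4.3.3, edgeR 4.0.16 fitted the counts of all genes by quasi-likelihood (glmQLFit and glmQLFTest), after filterByExpr (minimum count 10, minimum total 15) and TMM scaling (factors 0.628 to 1.29), with Benjamini-Hochberg adjustment over 13413 genes at 0.05. Each log2 fold change sets wild type over the controls, or double knockout over Pnma4 knockout in a fit with 3 genotypes. Standard errors came from dividing the absolute log2 value by the root of the F statistic. CPM were computed with TMM-scaled library sizes. Likeness is Pearson's r of log2 CPM with a prior count of 2. Total counts ran from 3138657 to 6367930, and every pair of libraries differed by a chi-square of 6.28 or more per degree of freedom, above sampling noise. The design text calls the replicates biological. The fit was first run on simulated counts, and how often it recovered a set change is not given here.

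The members and the lists were chosen with earlier results of these data known. The rule for named genes was all 8 members, the 3 other genes of highest mean level in each list (fewer are printed) unless some passed the test, and the 5 genes most like Fnbp1l. Alternatives were DESeq2 1.42.0, limma-voom (limma 3.58.1) with quality weights, RLE, upper-quartile and no scaling, no filter, a minimum count of 30, the replicate number as a block and each library left out.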

Additional observations from a re-analysis of the deposited data

How the results depend on the processing

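As Fnbp1l was chosen for its difference in these data, its results in the alternatives are a description. Of the 8 genes, Fnbp1l alone passed in any alternative, without a filter on low counts (log2 fold change 1.09, edgeR adjusted p = 0.0062) and without control replicate 2 (1.46, 0.0325), so the number called, 0 with all libraries, was 1 in each of these. It lay from 0 to 1 over the fits without 1 library. Deviations of same-numbered libraries from their group means had correlations of 0.037, −0.064 and 0.079, within the −0.19 to 0.19 of the other pairs. With 3 libraries per group, these values cannot decide whether the numbers pair them. With the replicate block Fnbp1l had 1.14 (edgeR adjusted p = 0.143), and the block changed no call among the 8 genes. No other listed gene was called in wild type over lacking PNMA4 in any alternative. The count of all genes called in that comparison, 8, was 31 without a filter, 3 with the stricter filter, and 8 to 18 with 1 library left out, the highest without the double knockout library (replicate 3 of that group). In double knockout over Pnma4 knockout it was 10, and 16 in DESeq2, 201 without scaling factors, 31 without a filter and 10 to 35 with 1 library left out, the highest without wild-type replicate 3, then 22 without wild-type replicate 2 and 18 without Pnma4 knockout replicate 1.

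Among the 8 genes signs turned for Fnbp1, Wasl, Cdc42 and Pacsin2, and for Fnbp1l between the knockouts. With 1 library left out the medians of 4 lists also turned, with −0.046 to 0.065 for BAR, N-BAR and I-BAR genes, −0.17 to 0.071 for WAVE, −0.046 to 0.087 for Cdc42 inhibitors and −0.0010 to 0.20 for Cdc42 effectors. In wild type over lacking PNMA4, Fnbp1 had 0.0011 with upper-quartile scaling, 0.26 without scaling factors and 0.00061 without a filter, and −0.12 to 0.15 with 1 library left out. Wasl and Cdc42 had 0.055 and 0.063 without scaling factors. In double knockout over Pnma4 knockout, Wasl, Cdc42 and Pacsin2 had −0.67, −0.21 and −0.71 without scaling factors, where the median of all genes was −0.76. With 1 library left out, Fnbp1l had −0.56 to 0.62, Wasl −0.026 to 0.19 and Pacsin2 −0.088 to 0.20. The cause of these changes was not tested. Trip10 and Pacsin3 were too shallow for their intervals to exclude a 2-fold rise. Trip10 and Pacsin3 did not pass the stricter filter, and Trip10 did not pass without wild-type replicate 2.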
